A study of Mus musculus with 7 samples.

Results

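Lars2 encodes the mitochondrial leucyl-tRNA synthetase. It is described here with 8 other nuclear genes for mitochondrial aminoacyl-tRNA synthetases: Iars2 (isoleucine), Mars2 (methionine), Vars2 (valine), Yars2 (tyrosine), Nars2 (asparagine), Ears2 (glutamate), Tars2 (threonine) and Sars2 (serine). The 9 genes were picked by symbol from a deposited expression table of 52224 rows, and all 9 symbols were found. They were chosen because earlier results of the same libraries showed Lars2 apart from its relatives in the drug-treated cells, so their differences between drug and solvent are given as a description, with no test or call.

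The libraries came from haematopoietic stem cells with the surface phenotype CD48-CD150+LSK, sorted from bone marrow of wild-type C57BL/6J mice and kept in culture for 48 h. Cells of 3 libraries received DMSO, the solvent. Cells of 2 libraries received gemcitabine (Gem) at 0.5 µM, a deoxycytidine analog, and cells of 2 libraries received hydroxyurea (HU) at 100 µM, an inhibitor of ribonucleotide reductase. No group was left uncultured, the age of the mice is not stated in the labels, and they do not say whether libraries came from separate mice or cultures, so a p-value measures only the spread between these libraries.

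Mitochondria carry their own small genome, whose messenger RNAs encode core subunits of the respiratory chain and are read by ribosomes inside the organelle. Each amino acid has to be joined to its mitochondrial tRNA by a synthetase that is encoded in the nucleus, made in the cytosol and imported. For leucine, isoleucine and the other amino acids named above the cytosol uses a separate enzyme, such as Lars for leucine.

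Levels are in FPKM, fragments per kilobase of transcript scaled to the mapped fragments of the library, which divides by length and so permits a comparison between genes. Differences are in log2(FPKM + 1), which understates the change of low genes, with the standard error (SE) of a limma model of all 7 libraries. A gene was tested if it reached an FPKM of 1 in at least 2 libraries, which 13865 genes did, all 9 synthetases included. A gene was called at a Benjamini-Hochberg adjusted p below 0.05 over all genes tested.

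The libraries differed as wholes. The sum of FPKM over all genes was 818775 to 832979 with DMSO, 703016 to 729258 with Gem and 647760 to 651315 with HU, and the number of genes above 0 was 21251 to 23047, 27887 to 29158 and 29687 to 31153. The median gene tested was lower by 0.25 in Gem and by 0.30 in HU on the log2 scale. After trimmed-mean scaling of the libraries to each other, those medians were 0.028 and 0.046, so the scaled value of each of the 9 genes is given beside its deposited one. Genes for olfactory and vomeronasal receptors were above 0 in 353 to 376 of 1507 cases with DMSO, 884 to 956 with Gem and 1086 to 1120 with HU.

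The markers of the sorted phenotype were mixed. Of 7 stem cell markers, Kit stood at 40.2 to 48.2 FPKM in DMSO, Ly6a, which encodes Sca-1, at 34.3 to 48.3 and Procr at 10.1 to 17.0. Hlf stood at 1.32 to 3.68 FPKM there, Slamf1, which encodes CD150, at 0.41 to 1.25 and Mecom at 0.18 to 0.45, and Fgd5 reached 0.05 at most. The 7 summed to 87.7 to 116 FPKM with DMSO, 61.3 to 73.8 with Gem and 61.8 to 65.1 with HU, and Kit and Ly6a carried most of each sum. The medians of the 5 tested were -0.48 in Gem and -0.37 in HU, and after trimmed-mean scaling -0.19 and -0.036. The 2 not tested were Fgd5, at 0.17 and 0.21 FPKM in Gem and 0.43 and 0.50 in HU, and Mecom, at 0.48 and 0.20 in Gem and 1.71 and 0.44 in HU. Of 7 granulocyte and monocyte markers, 5 had estimates below 0 with each drug, as 11017 of 13865 genes did in Gem and 10919 in HU. Their medians were -0.18 in Gem and -0.27 in HU, beside -0.25 and -0.30 over all genes. After trimmed-mean scaling, 4 of the 7 were above 0 with each drug, with medians of 0.14 and 0.12. On that scale 1 was called higher in HU by limma, beside 5.57% of all genes, and 0 in Gem, beside 0.485%. Their sum, 36102 to 40538 FPKM with DMSO, 45949 to 47344 with Gem and 42656 to 46178 with HU, was mostly Lyz2, which stood at 21718 to 30761 in DMSO, 34347 and 35554 in Gem, and 32469 and 36422 in HU. The 5 mast cell and basophil markers summed to 281 to 1356 FPKM with DMSO, 220 to 402 with Gem and 199 to 204 with HU, and the 5 megakaryocyte markers to 1717 to 2780, 1684 to 1781 and 1339 to 1536. For 6 erythroid markers the sums were 50.8 to 96.0, 21.3 to 30.3 and 30.1 to 32.3 FPKM in the same order. After trimmed-mean scaling, the mast cell and basophil, megakaryocyte and erythroid medians were -0.77, -0.13 and -0.80 in Gem, beside 0.028 over all genes. In HU they were -1.27, -0.34 and -0.37, beside 0.046. The 5 lymphoid markers summed to 13.6 FPKM at most, nearly all of it Il7r. The sums are as deposited, so they also carry the difference between the libraries as wholes. The part of these markers in the synthetase levels was not tested, and in bulk RNA fewer cells of a type and less RNA per cell cannot be told apart.

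Lars2 lay at 9:123366927-123462666 on the plus strand of GRCm38 (mm10), a span of 95740 bp with 21 exons in the transcript of the longest coding sequence, which encodes 902 residues. The promoters of Lars2, Sars2 and Yars2 are shown because Lars2 was the gene that was higher with both drugs, while Sars2 and Yars2 had the lowest estimates with Gem. Each is the 250 bases before the RefSeq start of transcription (GRCm38.p6), read 5′ to 3′ on the strand of the gene, with matches to the searched motifs in capitals. They are chr9:123366677-123366926 for Lars2, chr7:28741718-28741967 for Sars2 and chr16:16302715-16302964 for Yars2, all on the plus strand.
Lars2: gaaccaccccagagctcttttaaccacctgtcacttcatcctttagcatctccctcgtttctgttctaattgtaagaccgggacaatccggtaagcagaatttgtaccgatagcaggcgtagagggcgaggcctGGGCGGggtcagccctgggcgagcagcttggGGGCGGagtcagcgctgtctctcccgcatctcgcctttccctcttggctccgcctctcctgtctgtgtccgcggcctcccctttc
Sars2: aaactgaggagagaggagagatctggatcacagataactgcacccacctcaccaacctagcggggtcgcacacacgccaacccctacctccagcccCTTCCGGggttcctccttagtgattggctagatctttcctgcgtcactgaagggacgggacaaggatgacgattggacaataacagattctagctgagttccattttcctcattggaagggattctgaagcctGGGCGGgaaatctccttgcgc
Yars2: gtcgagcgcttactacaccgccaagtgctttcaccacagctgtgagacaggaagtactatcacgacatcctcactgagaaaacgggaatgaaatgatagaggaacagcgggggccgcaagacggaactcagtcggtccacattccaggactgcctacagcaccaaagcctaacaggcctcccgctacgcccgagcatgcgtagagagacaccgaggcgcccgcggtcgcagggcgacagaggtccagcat

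All 9 promoters were searched on both strands for 9 short motifs, and 32851 RefSeq promoters of the same length served as the background. The GC box GGGCGG, bound by SP and KLF factors, stood in 7 of the 9 promoters against 32.7% of all, and Yars2 and Tars2 lacked it. Lars2 held it at 116 to 111 and at 85 to 80 bases before the start, and Sars2 held it at 21 to 16. The ETS motif CCGGAAG stood in Mars2 and Sars2, against 6.91% of all promoters. In Sars2 it lay on the reverse strand, at 154 to 148 bases before the start. Vars2 alone held the EGR motif GCGNGGGCG (4.70% of all) and the NRF1 motif GCATGCGC (2.26%), and its EGR match overlapped a GC box and an NRF1 match. None of the 9 windows held the AP-1 motif TGANTCA (6.75% of all), the NF-kB motif (1.21%), the ATF4 motif TTGCATCA (0.791%), the CRE core TGACGT (6.47%) or the YY1 motif ATGGCGG (2.21%). The Tars2 window (chr3:95754978-95755227) lay inside the GENCODE gene, whose 5′ end on the minus strand is at 95760206. Sequence before that end of Tars2 was not searched. The Ears2 window (chr7:122067087-122067336) lay partly inside its GENCODE gene, whose 5′ end on the minus strand is at 122067263. Its GC box at 123 to 118 bases before the RefSeq start fell in that part. The Nars2 window (chr7:96951277-96951526) also ran past the start of its GENCODE gene, at 96951505. A match is a string of letters and was not tested for binding.

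In DMSO, Lars2 had the highest level of the 9 genes. Its FPKM was 47.2, 52.8 and 62.4 in the 3 DMSO libraries, 126 and 136 in Gem, and 129 and 115 in HU. All 4 drug libraries lay above all 3 DMSO libraries, and the Gem and HU values overlapped. The mean was 54.1 ± 7.69 (SD, n = 3) in DMSO, 131 ± 7.16 (n = 2) in Gem and 122 ± 10.3 (n = 2) in HU, which is 2.43 and 2.25 times the DMSO mean. On the log2 scale Lars2 was higher by 1.27 ± 0.12 (SE) in Gem and by 1.16 ± 0.12 in HU. After trimmed-mean scaling these differences were 1.59 and 1.55. By the size of its difference Lars2 stood 158th of 13865 genes from the top in Gem and 424th in HU.

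**Figure D1:**
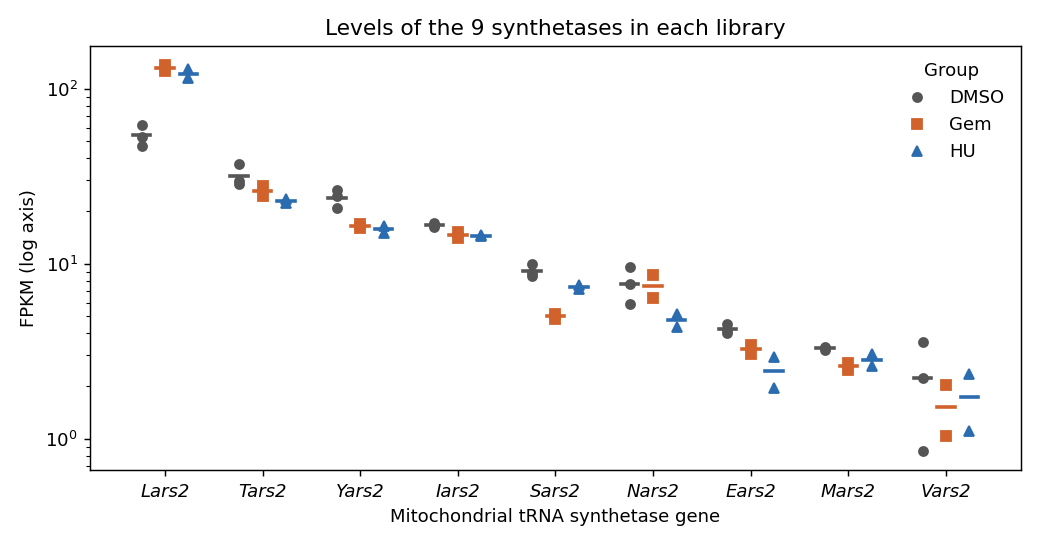
FPKM of the 9 mitochondrial synthetase genes (log axis) in each of the 7 libraries, with points coloured by group and bars at the group means. Lars2 lies at 47.2 to 62.4 FPKM in DMSO and at 115 to 136 in the drug libraries, while the other genes lie at similar or lower levels with drug.

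Next in level were Tars2, which charges threonine, and Yars2, which charges tyrosine. Tars2 stood at 29.9, 28.5 and 37.0 FPKM in DMSO, 27.7 and 24.3 in Gem, and 22.2 and 23.5 in HU. The difference was -0.28 ± 0.13 in Gem and -0.45 ± 0.13 in HU, and no drug library reached the lowest DMSO library. Yars2 stood at 26.3, 20.9 and 24.4 FPKM in DMSO, 16.04 and 17.0 in Gem, and 15.1 and 16.4 in HU. Here too all drug libraries lay under all DMSO libraries, by -0.50 ± 0.11 in Gem and -0.57 ± 0.11 in HU. After scaling, Yars2 remained below DMSO at -0.20 with either drug, and Tars2 was at 0.033 in Gem and -0.072 in HU.

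Iars2, the isoleucine enzyme, had the smallest SE of the 9 genes. It stood at 16.1, 17.0 and 16.6 FPKM in DMSO, 15.2 and 14.0 in Gem, and 14.5 and 14.4 in HU. All drug libraries lay under all DMSO libraries as deposited, but the differences of -0.17 ± 0.088 and -0.18 ± 0.088 were smaller than that of the median gene. After scaling the differences were 0.13 and 0.18, and all drug libraries lay above all DMSO libraries. Rab3gap2, which encodes a subunit of a Rab3 regulator, lies on the opposite strand, and 2034 bases of its exons overlap the end of the Iars2 transcript. Its FPKM was 20.9 to 24.4 with DMSO, 17.0 to 17.8 with Gem and 17.6 to 17.8 with HU. The sources used here do not say that reads carried strand, so reads of the shared stretch cannot be told apart.

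Sars2, which charges serine, showed the lowest Gem values relative to DMSO. It stood at 9.97, 8.52 and 8.83 FPKM in DMSO, 4.86 and 5.18 in Gem, and 7.14 and 7.57 in HU. The 3 groups were apart from each other, with Gem lowest and HU between Gem and DMSO. The difference from DMSO was -0.75 ± 0.12 in Gem and -0.27 ± 0.12 in HU, and after scaling -0.47 and 0.077, so the direction in HU depended on the scaling. Nars2, the asparagine enzyme, stood at 9.55, 7.62 and 5.85 FPKM in DMSO, 6.35 and 8.58 in Gem, and 4.36 and 5.19 in HU. Its Gem libraries lay inside the DMSO range and its HU libraries below it, with differences of -0.025 ± 0.21 and -0.57 ± 0.21. After scaling, Nars2 was at 0.26 in Gem and -0.23 in HU.

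The remaining 3 genes were the lowest of the 9. Ears2, which charges glutamate and in mitochondria also loads glutamate onto the glutamine tRNA, stood at 4.17, 4.53 and 4.0 FPKM in DMSO, 3.43 and 3.05 in Gem, and 1.95 and 2.94 in HU. Its differences were -0.30 ± 0.17 and -0.62 ± 0.17, and after scaling -0.052 and -0.32. Mars2, the methionine enzyme, has 1 exon and stood at 3.30, 3.20 and 3.36 FPKM in DMSO, 2.69 and 2.48 in Gem, and 2.59 and 3.04 in HU. Its differences were -0.26 ± 0.15 and -0.17 ± 0.15, and after scaling -0.021 and 0.12, so the direction in HU depended on the scaling. For Ears2 and Mars2 every drug library lay under every DMSO library. Vars2, the valine enzyme, stood at 2.23, 3.56 and 0.85 FPKM in DMSO, 2.02 and 1.03 in Gem, and 1.10 and 2.34 in HU. Its DMSO libraries spanned all of its drug libraries, with differences of -0.28 ± 0.41 and -0.18 ± 0.41, the largest SE of the 9, and of -0.084 and 0.063 after scaling.

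The 8 genes are spread over the genome. In GRCm38, Sars2 (7:28741992-28753871) and Nars2 (7:96951505-97064758) lie on the plus strand of chromosome 7 and Ears2 (7:122037213-122067263) on its minus strand. Mars2 (1:55237177-55248470) lies on the plus strand and Iars2 (1:185284726-185329396) on the minus strand of chromosome 1. Yars2 (16:16302965-16309640) lies on the plus strand, and Tars2 (3:95739976-95760206) and Vars2 (17:35655634-35667592) on the minus strand. Besides Iars2, genes on the opposite strand share exon sequence with Ears2 (Ubfd1, 89 bases), Nars2 (C230038L03Rik, 284 bases) and Vars2 (Gm20483). Ubfd1 stood at 8.80 to 16.5 FPKM in DMSO, 6.75 and 7.01 in Gem, and 10.4 and 6.94 in HU, above Ears2 in each library, so unstranded reads of the shared bases could count for either. C230038L03Rik reached 0.74 FPKM at most, and Gm20483 was listed at 0 in all 7 libraries. In the 3′ UTR of Mars2, 50 aligned bases matched 3 genes elsewhere at 94.0% identity. Of these, 2810403D21Rik, in the same orientation, stood at 3.18 to 5.52 FPKM in DMSO, 3.68 and 3.41 in Gem, and 4.50 and 4.85 in HU. Cfap44 and Gm37043 reached 0.85 and 0.17 FPKM at most. How many Mars2 reads came from that stretch was not tested. No stretch was shared by Tars2, Yars2 or Sars2.

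The order of the levels changed little. In DMSO it was Lars2, Tars2, Yars2, Iars2, Sars2, Nars2, Ears2, Mars2 and Vars2, where the ranges of Sars2 and Nars2 and those of Mars2 and Vars2 overlapped. In Gem, Nars2 stood above Sars2 with their ranges apart. In HU, Sars2 stood above Nars2, and the neighbours Mars2, Ears2 and Vars2 had overlapping ranges. Lars2 thus headed the order in each group, with the gap to Tars2 growing from 54.1 against 31.8 FPKM in DMSO to 131 against 26.0 in Gem and 122 against 22.9 in HU.

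**Figure D2:**
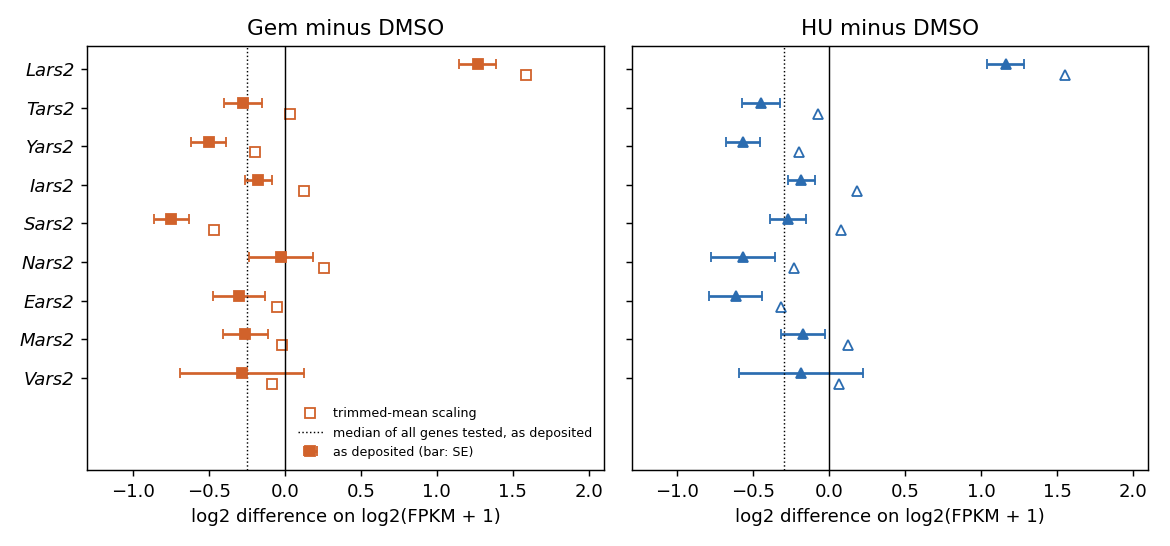
Difference in log2(FPKM + 1) from DMSO (horizontal axis) of each of the 9 genes in Gem (left) and HU (right), with filled markers and bars of 1 SE as deposited, open markers after trimmed-mean scaling and a dotted line at the median of all genes. Lars2 lies above 1 on both scales, and the other 8 estimates lie below 0 as deposited and on both sides of 0 after scaling.

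As deposited, the other 8 genes had estimates below 0 with both drugs, with a median of -0.28 in Gem and -0.36 in HU, beside -0.25 and -0.30 over all genes. After scaling, 5 of the 8 were below 0 in Gem and 4 in HU. Both drug groups were set against the same 3 DMSO libraries. As deposited, 3.76% of all genes had all 4 drug libraries above DMSO, as Lars2 did. Another 42.6% had them below, as 6 of the 9 did (Iars2, Mars2, Yars2, Ears2, Tars2 and Sars2). After scaling, none of those 6 kept all 4 drug libraries below DMSO. Lars2 still had them above, and so did Iars2 (15.5 to 16.8 against 13.8 to 14.7 FPKM). The shares over all genes were not counted after scaling. These contrasts chose the genes, so nothing is read from the counts.

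The difference between the 2 drugs was not used to choose the genes and was tested. None of the 9 was called in Gem against HU by limma, beside 0.101% of all genes (14 of 13865), and 2 of the 9 (Sars2 and Nars2) had an unadjusted p below 0.05, as 1484 of all genes did. Lars2 differed by 0.11 ± 0.13 with a 95% interval of -0.20 to 0.42 (limma adjusted p = 0.820), and by -0.032 on a TPM scale, on which each library has the same sum. Sars2 had the smallest p. Its Gem minus HU difference was -0.47 ± 0.13, with an interval of -0.77 to -0.17 (limma adjusted p = 0.288). For Nars2 the difference was 0.54 ± 0.23, with an interval of 0.0084 to 1.08 (limma adjusted p = 0.457). For Ears2 the difference was 0.31 ± 0.19 and for Tars2 0.17 ± 0.14, and the intervals of both held 0. Iars2, Mars2, Vars2 and Yars2 differed by -0.097 to 0.068, and the interval was widest for Vars2, from -1.14 to 0.95.

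The ratio of Lars2 to Lars, the cytosolic leucine enzyme, is free of the scaling of a library. It was 1.31, 1.45 and 1.54 in DMSO, 4.46 and 5.36 in Gem, and 5.20 and 3.92 in HU. The lowest drug library, at 3.92, lay above the highest DMSO library, at 1.54. Lars2 was chosen for its level in these drug libraries, so its ratio to Lars and its share of the synthetases are descriptions only. How often other pairs of genes part in this way was not counted. The cytosolic gene itself fell by 0.47 in Gem (limma adjusted p = 0.0189) and by 0.47 in HU (adjusted p = 0.0115), and it was not called after scaling. Lars2 made up 17.7%, 20.3% and 22.3% of the summed FPKM of 17 mitochondrial synthetase genes in DMSO, 40.3% and 44.8% in Gem, and 45.0% and 40.5% in HU. The ratio of Sars2 to Sars was 0.105 to 0.135 with DMSO, 0.0840 to 0.0880 with Gem and 0.142 to 0.145 with HU, which put Gem below and HU above DMSO. For Iars2 to Iars it was 0.338 to 0.376, 0.439 to 0.476 and 0.395 to 0.412, so both drugs lay above DMSO. The ratios of the other 6 genes to their cytosolic partners overlapped between DMSO and each drug.

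The last exon of Lars2 shares sequence with other genes, and the 3′ UTR of mouse Lars2 is known to hold a repeat related to large-subunit ribosomal RNA. Transcripts of GENCODE M21 were searched for stretches of at least 50 bases with at least 90% identity to the main transcript of each synthetase. In the 3′ UTR of Lars2, exon 21, positions 3278 to 3349 of the 3894-base transcript matched Gm15564 over 72 bases at 98.6% identity with 1 mismatch, in the same orientation. Positions 3233 to 3329 matched AA474408 over 97 bases at 94.8% and positions 3163 to 3212 over 50 bases at 96.0%. Gm15564 is an antisense-type transcript at 16:35966752-35983230 on the minus strand. Its FPKM was 3.05, 2.33 and 1.15 in DMSO, 9.82 and 14.0 in Gem, and 19.0 and 9.54 in HU. It rose by 2.05 ± 0.35 in Gem (limma adjusted p = 0.00955) and by 2.24 ± 0.35 in HU (adjusted p = 0.00320). Both calls held after scaling (adjusted p = 0.0427 and 0.0119), but without the library Gem 2 the Gem difference was 1.82 (adjusted p = 0.0842). All 4 drug libraries of Gm15564 lay above DMSO, as they did for Lars2, and the Pearson correlation of the genes over the 7 libraries, which fall into drug and control groups, was 0.90.

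AA474408, at 7:110057987-110061325 on the minus strand, stood at 1.07 to 1.93 FPKM in DMSO, 1.37 and 1.42 in Gem, and 1.76 and 1.23 in HU, and was not called (limma adjusted p = 0.917 in Gem and 0.968 in HU). Of 13 genes for ribosomal and related RNA that were looked up, 6 stood in the table under the searched symbols. AY036118, a locus known to resemble ribosomal RNA, stood at 21.3 to 38.1 FPKM in DMSO, 29.8 and 36.0 in Gem, and 37.5 and 28.0 in HU, and was not called. The mitochondrial ribosomal RNA mt-Rnr1 fell by 0.57 in Gem (limma adjusted p = 0.0369) and by 0.93 in HU (adjusted p = 0.00414), but after scaling it was at -0.25 (adjusted p = 0.434) and -0.54 (adjusted p = 0.0576) and was not called. The larger one, mt-Rnr2, fell in HU by 0.54 (limma adjusted p = 0.0157) and stood at 0.018 in Gem (adjusted p = 0.934). After scaling, mt-Rnr2 was at -0.15 in HU (limma adjusted p = 0.514) and 0.34 in Gem (adjusted p = 0.249), and was not called. How many of the Lars2 reads came from the shared stretch was not tested, since the table gives 1 value per gene.

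No annotated gene overlapped Lars2. The nearest tested protein-coding gene after it was Limd1, 16040 bp away, which encodes a LIM domain scaffold protein. Limd1 stood at 16.7 to 17.5 FPKM in DMSO, 15.1 and 17.4 in Gem, and 16.6 and 16.4 in HU. The nearest before it was Tmem158, 106163 bp away, at 5.16 to 10.9 FPKM in DMSO, 5.53 and 7.02 in Gem, and 8.54 and 5.38 in HU. Neither neighbour was called with either drug, as deposited or after scaling.

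A further 8 mitochondrial synthetases lay outside the set, among them Cars2 for cysteine and Rars2 for arginine. In Gem, 0 of the 8 were called by limma, beside 23.2% of all genes called lower and 1.50% higher. Of the 8, 2 had an unadjusted p below 0.05, as 5498 of 13865 genes did, and their median was -0.19, beside -0.25 over all genes. In HU, Cars2 fell by 0.40 (limma adjusted p = 0.0154) and Rars2 by 0.29 (adjusted p = 0.0485), which is 2 of 8 beside 35.5% of all genes called lower and 4.46% higher, and the median was -0.31, beside -0.30. After scaling, neither was called and Rars2 was at 0.082. Kars and Gars, whose products serve both compartments, charge lysine and glycine. As deposited, both genes were called lower in HU, beside 35.5% of all genes, and Kars alone in Gem, beside 23.2%. Kars fell by 0.39 in Gem (limma adjusted p = 0.0384) and 0.54 in HU (adjusted p = 0.00788). After scaling, Kars was at -0.072 in Gem (limma adjusted p = 0.791) and -0.15 in HU (adjusted p = 0.445). Gars fell by 0.35 in HU (limma adjusted p = 0.0100) and was at -0.21 in Gem (adjusted p = 0.0806), and after scaling it was at 0.039 in HU. The 2 drugs did not differ by a call for Gars (Gem against HU, limma adjusted p = 0.583). Of 4 partners that finish charged tRNAs, 2 were called lower in Gem, beside 23.2% of all genes, and 0 in HU, beside 35.5%. These were Gatb and Qrsl1, subunits of the mitochondrial glutamyl-tRNA amidotransferase, at -0.40 (limma adjusted p = 0.0264) and -0.47 (adjusted p = 0.0382). In HU, 0 of the 4 had an unadjusted p below 0.05. After scaling, Gatb was at -0.10 in Gem (limma adjusted p = 0.646) and Qrsl1 at -0.18 (adjusted p = 0.547). Neither was called between the drugs (Gem against HU, limma adjusted p = 0.516 and 0.605).

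The cytosolic synthetases and their scaffold were mostly lower as deposited, opposite to Lars2. Of 22 genes, 18 fell in Gem and 20 in HU, and 0 were called higher, beside 23.2% and 35.5% of all genes called lower and 1.50% and 4.46% higher. The medians were -0.41 and -0.45, beside -0.25 and -0.30 over all genes. Aimp1 and Aimp2, scaffold proteins of the multisynthetase complex, fell by 0.63 and 0.66 in Gem (limma adjusted p = 0.00981 and 0.00699) and by 0.90 and 0.73 in HU (adjusted p = 0.00149 and 0.00177). Sars, the serine enzyme of the cytosol, fell by 0.41 in Gem and 0.60 in HU (limma adjusted p = 0.0119 and 0.00171). Farsb, a phenylalanine enzyme subunit, fell by 0.31 and 0.54 (limma adjusted p = 0.0322 and 0.00293), and in Gem its scaled value was 0.0057. After scaling, 0 of the 22 were called in Gem, where 3 had an unadjusted p below 0.05, and Aimp1 alone was called in HU (limma adjusted p = 0.0206).

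Of 21 genes for tRNA maturation, 6 fell in Gem, a share near the 23.2% of all genes called lower, and 13 in HU, beside 35.5%. They included Pus1, a pseudouridine synthase, at -0.63 and -0.59 (limma adjusted p = 0.00650 and 0.00214), and Hsd17b10, a subunit of mitochondrial RNase P, at -0.52 and -0.66 (adjusted p = 0.0120 and 0.00261). Qtrt1, which inserts queuine into tRNA, was at -0.73 and -0.58 (limma adjusted p = 0.00687 and 0.00420), and Nsun2, a tRNA methyltransferase, at -0.36 and -0.50 (adjusted p = 0.0236 and 0.00469). Of 13 factors of mitochondrial translation, 5 fell in Gem and 7 in HU, beside the same 23.2% and 35.5%. The elongation factors Tufm and Gfm1 were at -0.35 and -0.49 in Gem (limma adjusted p = 0.0230 and 0.0244) and at -0.52 and -0.86 in HU (adjusted p = 0.00337 and 0.00210). Slirp, which stabilises mitochondrial messenger RNA, was at -0.65 and -0.96 (limma adjusted p = 0.0228 and 0.00341), and Mrpl58, a peptidyl-tRNA hydrolase of the mitochondrial ribosome, at -0.50 and -0.40 (adjusted p = 0.00845 and 0.00739). None of the 70 genes in these 6 lists was called higher with either drug, beside 1.50% of all genes in Gem and 4.46% in HU, shares at which few of 70 would be. After scaling, 0 of the 70 were called by limma in Gem, with 7 at an unadjusted p below 0.05, beside 0.485% of all genes called higher and 0.385% lower. In HU, 3 of the 70 were called after scaling, all lower (Aimp1, Gfm1 and Slirp), beside 5.57% higher and 4.60% lower. The 32 calls in Gem dropped to 0 without the library Gem 2, to 13 without DMSO 1 and to 14 without Gem 1, and the 44 in HU to 29 without HU 1 or HU 2.

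**Figure D3:**
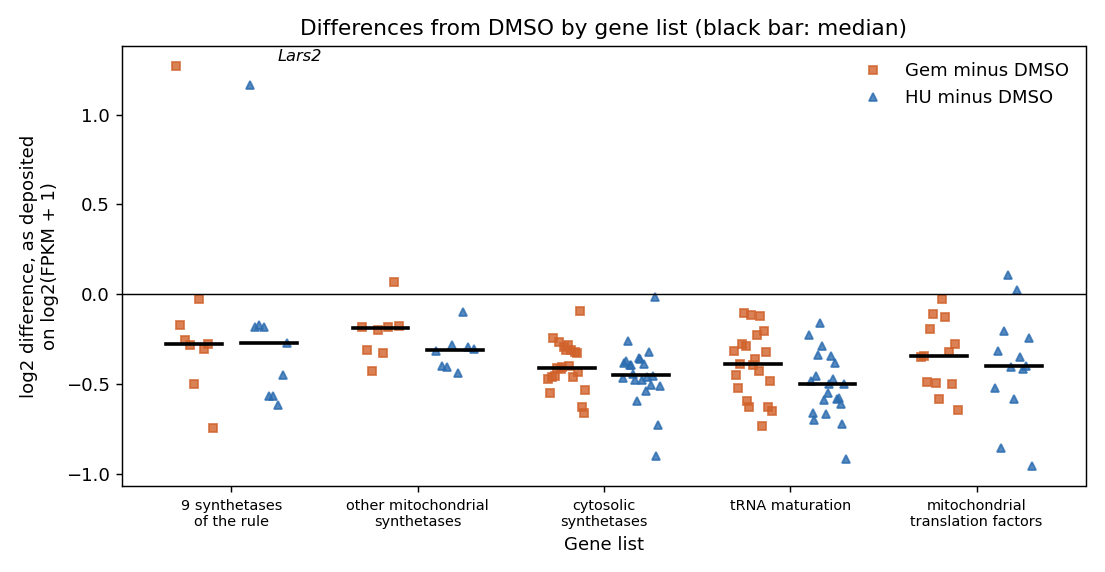
Difference from DMSO in log2(FPKM + 1), as deposited, for each tested gene (points, spread sideways for legibility) of 5 gene lists, with Gem and HU side by side and black bars at the list medians. Lars2 is the only gene above 1, and the cytosolic list has its medians at -0.41 in Gem and -0.45 in HU.

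The tRNAs themselves were hardly measured. Of 11 mitochondrial tRNA genes for the amino acids of the 9 enzymes, 7 were listed at 0 in all 7 libraries, and none passed the filter. The glutamine tRNA, which Ears2 also loads, was not looked up. The other 4 were above 0 in 1 library each, the leucine tRNA mt-Tl1 with 65.9 FPKM in Gem 2, and mt-Tv, mt-Te and mt-Ts1 in HU 1. Genes as short as a tRNA are poorly estimated in FPKM, and no change is read from these values.

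Genes with a pattern like that of Lars2 were sought by the Pearson correlation of log2(FPKM + 1) over the 7 libraries, among tested genes with a mean FPKM of at least 5. Symbols of predicted genes, clones and pseudogenes, Gm15564 among them, were left out. The libraries fall into control and drug groups, so any gene that differs between them scores high, and the values are a description. The 6 most alike were Nfkb2 (0.99), which encodes an NF-kB subunit, Jun (0.99) and Fos (0.98), which encode AP-1 subunits, Egr1 (0.97), an early response transcription factor, Ip6k1 (0.95), an inositol phosphate kinase, and Atg13 (0.95), a factor of autophagy initiation. Jun stood at 15.9 to 21.8 FPKM in DMSO, 143 and 152 in Gem, and 164 and 150 in HU. Atg13 stood at 18.9 to 21.2 FPKM in DMSO, 35.6 and 37.0 in Gem, and 46.5 and 39.5 in HU. The 3 least alike were Sft2d2, Cdc25a and Stxbp3, at -0.996, -0.996 and -0.995. Cdc25a, a phosphatase of the cell cycle, stood at 6.90 to 7.74 FPKM in DMSO, 4.94 and 5.04 in Gem, and 5.04 and 5.15 in HU. Among the 9 synthetases, the correlation with Lars2 ran from -0.93 for Yars2 to -0.41 for Vars2. It was taken on deposited values, in which the median gene was lower with both drugs, and was not computed after scaling. Iars2, at -0.90 as deposited, was higher with both drugs after scaling, as Lars2 was.

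**Figure D4:**
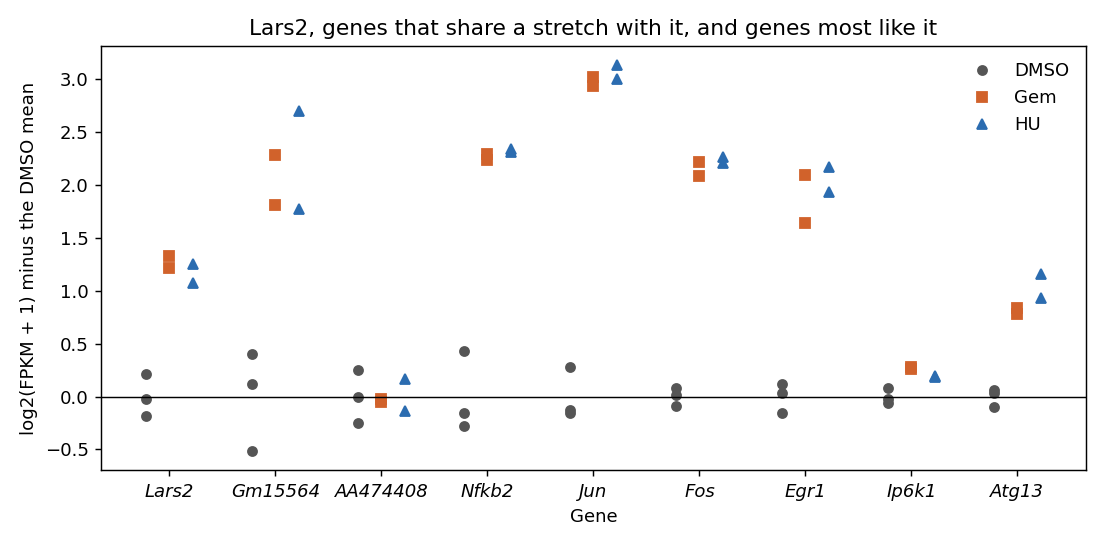
Each of the 7 libraries is shown by its log2(FPKM + 1) minus the mean of the 3 DMSO libraries (vertical axis), for Lars2, the 2 genes that share a stretch with it and the 6 genes most alike to it (horizontal axis). For every gene but AA474408 the 4 drug libraries lie above the 3 DMSO libraries, by about 1.27 in Gem for Lars2 and 2.05 for Gm15564.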

How the data were processed

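RNA was measured in 7 libraries of sorted and cultured cells (3 DMSO, 2 Gem, 2 HU). Per the labels' protocols, messenger RNA was copied and amplified by the Geo-seq method, and a transposase kit was used to build the libraries. The authors deposited 1 table of FPKM values for 52224 genes, and every column matched the title of a library. Per the submitters' processing notes, the tools were HTSeq, DESeq2, Cufflinks 2.1.1 and Bowtie 0.12.9 on the build mm10, with no role given. Which of them made the FPKM, and with which annotation, is not given in the sources used here. A step of whole reads was sought among low values, with gene lengths from GENCODE M21. At the best of many trial steps, 23.7% to 26.3% of values were whole to within 0.1 step. By chance 20% would be at any given step, and more at the best of many. The lengths behind the FPKM may differ, so the search cannot show whether a step exists. The depth behind each value is unknown.

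Two-sided tests were made in limma 3.58.1 (R 4.3.3) on log2(FPKM + 1). The model held the 3 groups and no block, left 4 residual degrees of freedom, and let the prior variance follow the mean. The filter asked for 1 FPKM or more in 2 libraries or more and kept 13865 genes. Trimmed-mean scaling (30% of ratios and 5% of levels trimmed at each end), a TPM scale (each library set to the same sum), another pseudocount, other filters, no trend, the replicate number as a block and the omission of each library were run as alternatives. The fit was tested on simulated data. Replicate numbers were not treated as pairs in the reported fit, and the labels do not say whether they are. Shared stretches were found with BLAST 2.17.0 in GENCODE M21 transcripts, and promoter sequences came from RefSeq. Figures were drawn with matplotlib 3.10.9.

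The genes, the gene lists and the tests were chosen with earlier results of these data known. Named were the 9 synthetases, members of the short lists (other mitochondrial and dual synthetases, and ribosomal RNA genes; values of some members are not reported here), up to 4 called genes with the smallest p of each longer list, genes that overlap or neighbour them, and the 6 genes most and 3 least alike to Lars2. The cytosolic Lars was added as the partner of Lars2 after its values were seen. Lists were described by counts and medians, and no set test was made.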

Additional observations from a re-analysis of the deposited data

How the results depend on the processing

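The Lars2 difference from DMSO kept its sign under every alternative run. In Gem it was 1.47 on the TPM scale, 1.59 after trimmed-mean scaling and 1.18 to 1.38 without 1 library. In HU it was 1.50, 1.55 and 1.07 to 1.27. Between the drugs it was -0.032 on the TPM scale. Genes called in Gem numbered 3421 in the reported fit, 1509 with no filter, 437 on the TPM scale, 122 after trimmed-mean scaling, 2132 with no trend and 13 to 3381 without 1 library, the lowest without Gem 2. In HU they numbered 5541, 1610 on the TPM scale, 1426 after trimmed-mean scaling and 3095 to 5204 without 1 library. Between Gem and HU they numbered 14, and 1 with a pseudocount of 0.1, 2 with no filter, 2 at a mean FPKM of at least 5, 64 with no trend and 1 to 11 without 1 library. The 32 calls among 70 list genes in Gem became 13 with no filter, 2 on the TPM scale, 0 after trimmed-mean scaling, 17 with no trend and 0 to 31 without 1 library. The 44 in HU became 5, then 3 after trimmed-mean scaling, and 29 to 47 without 1 library. The causes were not tested.

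With the replicate number as a block, genes called numbered 2877 in Gem, 4835 in HU and 2 between the drugs, and list genes 27 and 43. Same-numbered libraries deviated together with correlations of 0.03 (DMSO and Gem), 0.05 (DMSO and HU) and -0.07 (Gem and HU). Such low values cannot show whether same-numbered libraries shared a mouse, a culture or a preparation.

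Signs turned for small differences. On the TPM scale and after trimmed-mean scaling, Gem minus HU was -0.12 and -0.058 for Iars2 and -0.065 and -0.00042 for Yars2, Limd1 was 0.12 and 0.23 in Gem and 0.27 and 0.32 in HU, Tmem158 0.020 and 0.064 in HU, AA474408 0.080 and 0.15 in Gem and Rars2 0.035 and 0.082 in HU. After trimmed-mean scaling, Farsb was 0.0057 in Gem, and Rab3gap2, Gars and Sft2d2 were 0.014, 0.039 and 0.037 in HU. Without 1 library, Gem minus HU was -0.048 to 0.068 for Iars2 and -0.43 to 0.24 for Vars2. Likewise AA474408 was -0.16 to 0.089 in Gem and -0.14 to 0.17 in HU, Limd1 -0.17 to 0.022 in Gem and Tmem158 -0.59 to 0.0084 in HU. The read depth is unknown, so the counting error of the low genes Vars2, Mars2 and Ears2 could not be set apart from the spread between libraries.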
